A study of Mus musculus with 12 samples.

Results

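The cytokine genes described here are Il33, Il11, Il1a, Il1rn, Il18, Il34, Il6, Lif, Csf1 and Tslp, interleukins and related signals that epithelial cells can make. The 10 genes were chosen by name and found through the mouse symbols of the deposited Entrez gene IDs, among 15802 genes listed in both deposited tables. RNA sequencing was done on mTECs, a mouse renal tubular epithelial cell line, to ask how fumarate hydratase (FH, gene Fh1) bears on fibrosis of the kidney. Control cells (NC) and FH-silenced cells (KD) were sequenced in a basal state and after TGF-β1 (NC+TGF-β1 and KD+TGF-β1), with 3 libraries in each of 4 groups. All groups share 1 cell line. The silencing reagent and the dose and duration of TGF-β1 are not stated in the labels. The labels do not say whether replicates were separate cultures, so p-values here reflect the spread among these libraries, which may be technical. In bulk RNA, fewer cells expressing a gene and less RNA per cell cannot be told apart.

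Epithelial cells signal injury and shape their surroundings through a small set of cytokines. Interleukin-33 and interleukin-1α are alarmins of the IL-1 family that are held in the cell and released when it is damaged. Their relative IL-18 is made as a precursor that caspase-1 cuts, and the IL-1 receptor antagonist, coded by Il1rn, blocks IL-1. Interleukin-6, interleukin-11 and LIF signal through the shared receptor chain gp130 to JAK kinases and STAT3, and IL-11 is known as a TGF-β-induced cytokine of fibrosis. CSF-1 and IL-34 are the ligands of the CSF-1 receptor, through which macrophages survive and grow, and in the kidney tubular cells are a known source of both. TSLP is an epithelial cytokine that primes dendritic cells for type 2 responses.

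The libraries held 17651213 to 18462872 estimated counts. Fh1 was at 52.9 ± 1.37 CPM (counts scaled to library size; mean ± SD, n = 3) in NC and 29.9 ± 1.38 in KD libraries, and at 49.6 ± 0.175 and 14.2 ± 0.726 with TGF-β1. Silencing therefore left 56.4% of the transcript in basal and 28.6% in TGF-β1 libraries. On the first principal component (78% of the variance) the TGF-β1 libraries lay apart from the basal ones, and NC replicate 1 stood at 20 on the second (3.89%), where the other 11 libraries ranged from -8.08 to 7.18. Basal libraries were deposited in 1 table and TGF-β1 libraries in another. An effect of TGF-β1 thus cannot be told apart from a difference between the experiments or tables. Where a gene is said below to rise or fall with TGF-β1, this names the contrast of TGF-β1 with basal libraries only. Of 10 markers of tubular epithelium, all were listed and 9 averaged 10 or more counts in every group. Lrp2 (megalin), the endocytic receptor of the proximal tubule, had 0 to 2 counts in 11 libraries and 13 in KD+TGF-β1 replicate 1. That library also held 328 counts of 9 pluripotency genes that were at 0 in the other 11. Unlike the other markers, these 9 were listed because they had been noticed in earlier results of these data. Without KD+TGF-β1 replicate 1 every member called in a comparison that includes it stayed called, and without NC replicate 1 every one but Il1a did.

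Promoter sequences are shown for the members with the greatest changes, to set the start sites that the deposited transcripts use beside the counts. Each line gives the 150 bases before a transcription start, 5′ to 3′ on the strand of the gene, from RefSeq on GRCm38.p6, with matches to the AP-1 motif TGANTCA in capitals. AP-1 is the dimer of JUN and FOS proteins, and its motif reads the same on both strands. The windows are chr7:4778142-4778291 (minus strand) for Il11 transcript NM_008350, chr7:4782858-4783007 (minus) for its upstream start NM_001290423, chr2:24336710-24336859 (plus) for Il1rn NM_031167, chr2:129309973-129310122 (minus) for Il1a NM_010554, and chr19:29924963-29925112 and chr19:29945640-29945789 (both plus) for the upstream and downstream starts of Il33.
Il11 NM_008350: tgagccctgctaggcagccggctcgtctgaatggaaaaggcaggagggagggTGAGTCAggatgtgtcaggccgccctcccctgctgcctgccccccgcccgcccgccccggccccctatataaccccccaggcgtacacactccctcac
Il11 NM_001290423, upstream start: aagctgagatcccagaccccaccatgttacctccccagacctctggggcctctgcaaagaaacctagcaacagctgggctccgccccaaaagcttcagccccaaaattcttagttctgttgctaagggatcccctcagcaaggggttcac
Il1rn NM_031167: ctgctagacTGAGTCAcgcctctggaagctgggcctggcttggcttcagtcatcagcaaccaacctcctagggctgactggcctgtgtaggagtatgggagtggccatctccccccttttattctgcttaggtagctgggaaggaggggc
Il1a NM_010554: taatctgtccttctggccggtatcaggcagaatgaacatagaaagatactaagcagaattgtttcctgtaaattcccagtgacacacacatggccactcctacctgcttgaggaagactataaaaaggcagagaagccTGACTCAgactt
Il33 NM_133775, upstream start: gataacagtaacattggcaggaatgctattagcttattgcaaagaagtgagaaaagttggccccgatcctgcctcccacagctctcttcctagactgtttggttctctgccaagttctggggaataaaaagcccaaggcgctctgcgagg
Il33 NM_001164724, downstream start: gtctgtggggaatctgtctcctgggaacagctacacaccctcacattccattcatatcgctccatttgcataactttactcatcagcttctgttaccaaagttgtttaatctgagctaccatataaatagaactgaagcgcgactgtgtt

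Over rows of 300 bases (250 before the start to 50 after it), 5 of the 12 rows of the members held an AP-1 match, 1 each for Il11, Il1rn, Il1a, Il6 and Lif. The first bases of the matches lay 98, 141, 12, 249 and 228 bases before the start. Of all 32851 such rows, 7.81% held the motif. Rows were found for 8 of the 10 members. The STAT motif TTCNNNGAA, in 8.3% of all rows, had no match in the 12 rows, and the SMAD-type motif CAGACA, searched on both strands and in 21% of all rows, had 1, in Il6 at 17 bases after the start. Members that rose and members that fell with TGF-β1 both held the AP-1 letters. A match is a description of these letters and not of binding.

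In NC libraries the members ranged over more than 2 orders of magnitude in TPM, the deposited level per transcript length. Csf1 stood highest at 114 ± 0.806 TPM (mean ± SD, n = 3), followed by Lif at 59.2 ± 2.2, Il34 at 32.1 ± 1.3, Il1rn at 11.3 ± 0.306 and Il33 at 10.5 ± 0.392. Tslp was at 1.73 ± 0.355 TPM. The ranges of the 3 libraries of these 6 genes did not overlap. Il1a (0.637 ± 0.174), Il11 (0.563 ± 0.108) and Il18 (0.5 ± 0.21) came last and overlapped with their neighbours. KD libraries kept the order down to Tslp, which there overlapped with Il1a. With TGF-β1 the first 3 genes kept their places. Il11 became the fourth gene, at 4.95 ± 0.367 TPM in NC+TGF-β1 and 4.38 ± 0.845 in KD+TGF-β1 libraries, above Il1rn at 2.16 ± 0.357 and 2.62 ± 0.193. Il33, at 0.56 ± 0.239 TPM, overlapped with Il18 in NC+TGF-β1 libraries, and at 0.26 ± 0.161 it was below Il18 and Il1a in KD+TGF-β1 libraries without overlap.

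**Figure D1:**
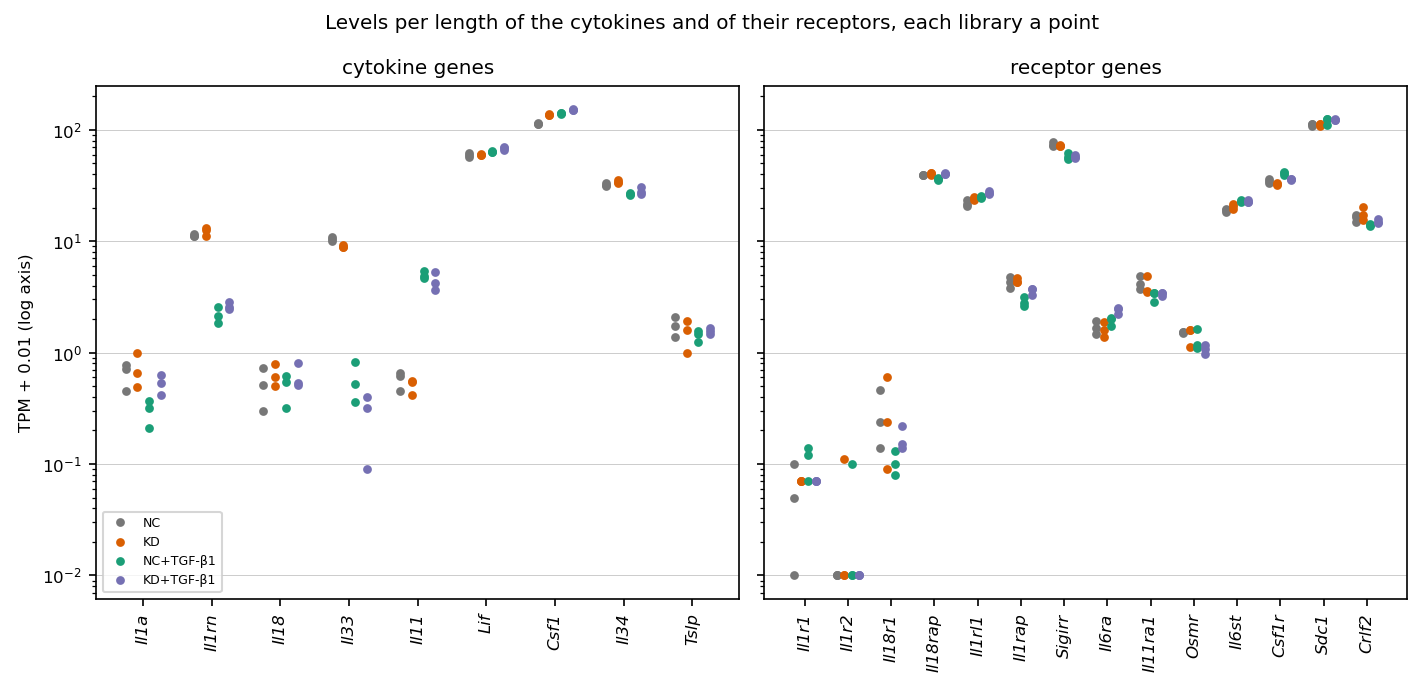
Levels in TPM plus 0.01 on a log axis for 9 cytokine genes (left) and 14 receptor genes (right), with 1 point per library and a colour per group. Csf1, Lif and Il34 lie highest in all groups, Il11 is higher and Il1rn and Il33 are lower in TGF-β1 libraries, and Il1r1, Il1r2 and Il18r1 stay below 1 TPM.

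Differences between groups were tested for 8 of the 10 members with edgeR's quasi-likelihood F-test on the counts of all 11707 genes that passed the low-count filter, and a call is a Benjamini-Hochberg adjusted p under 0.05. Il18 had too few counts for the filter and Il6 was not listed in both tables. No tested member passed the filter through 1 group alone. Silencing in basal cells called 1 member, Csf1, as higher, where 3.66% of all tested genes were called (1.44% higher, 2.22% lower). Silencing in TGF-β1 libraries also called Csf1 alone, as higher, against 11.4% of all genes (5.42% higher, 6.02% lower). The median log2 change of the 8 members was 0.036 and 0.10 in these comparisons, against -0.015 and 0.0015 over all genes. Between the TGF-β1 and the basal libraries, 6 members were called in control cells (2 higher, 4 lower) and 6 in silenced cells (3 and 3), where 64.2% (29.4% higher, 34.7% lower) and 65.1% (31.4% higher, 33.7% lower) of all genes were called. A share of 6 in 8 is near that background. The libraries of 6 members did not overlap in either comparison, against 65.9% and 72.9% of all genes. The member medians were -0.28 and -0.085 there, against -0.032 and -0.014. No member was called in the interaction, the difference between the silencing effects, by edgeR (0.888% of genes called, 0.47% higher and 0.419% lower), with 1 at an unadjusted p under 0.05, and DESeq2 called 1. In both, this was Csf1. The comparisons share libraries: the NC libraries are the reference of basal silencing and of TGF-β1 in control cells. Fh1 itself had an interaction of -0.98 (SE 0.069, edgeR adjusted p = 8.176e-06). With TGF-β1 in silenced cells Fh1 was at -1.07 (SE 0.053, edgeR adjusted p = 4.223e-10). Silencing was thus not of equal depth in basal and TGF-β1 libraries, and how this bears on the interaction of Csf1 was not tested.

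**Figure D2:**
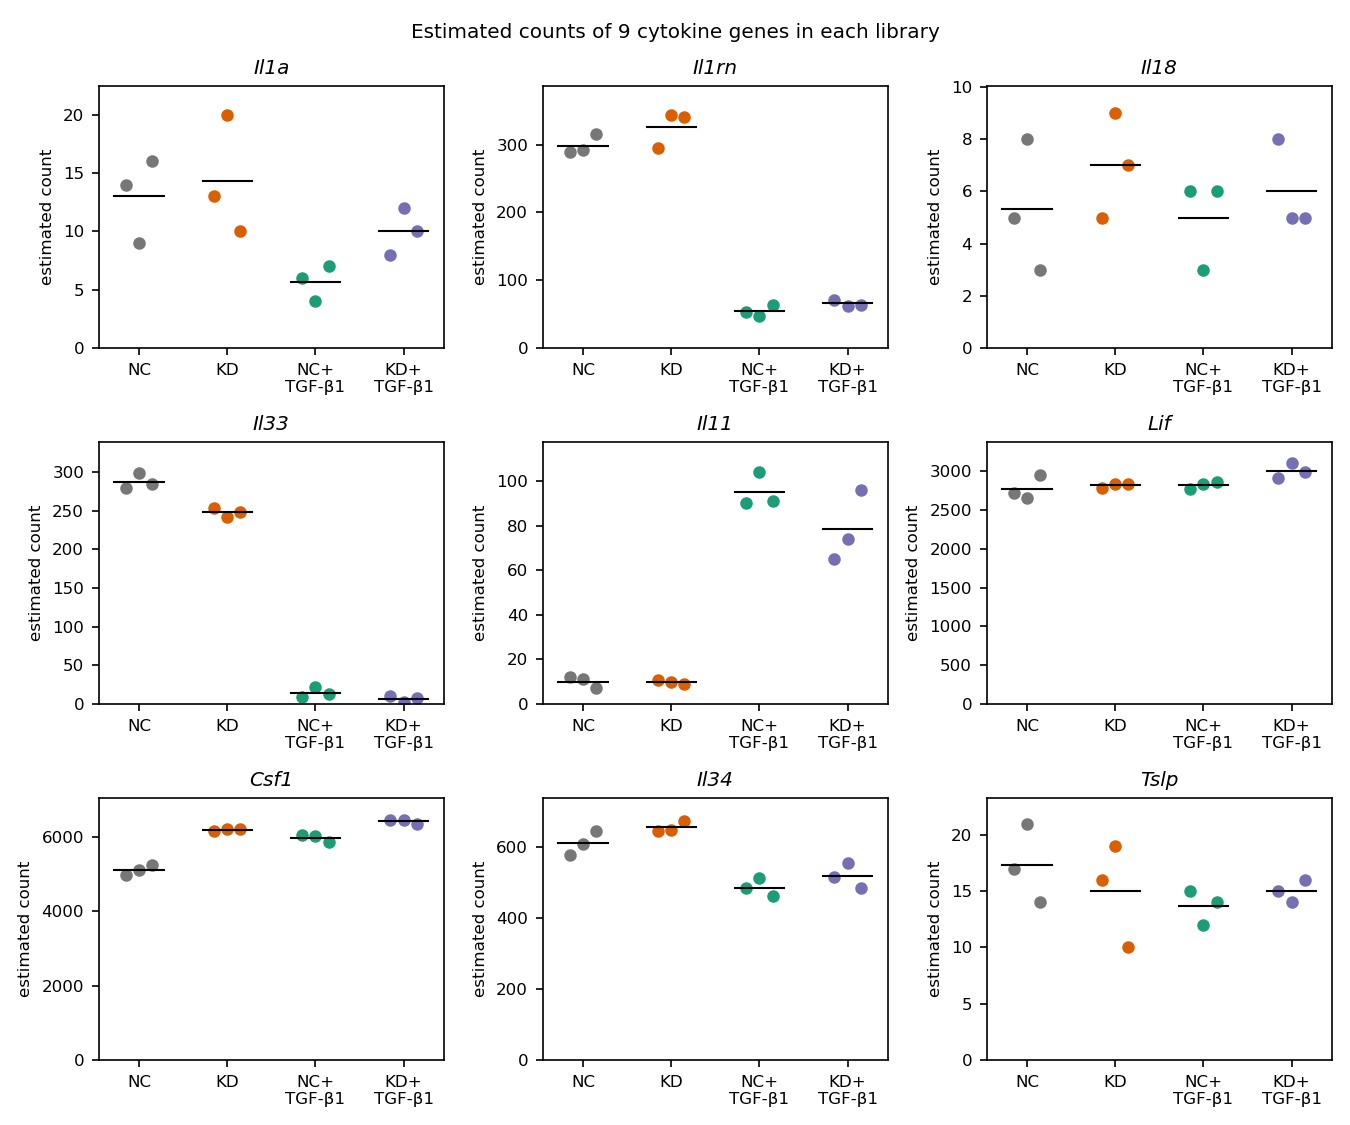
Estimated counts of 9 members in each library, on axes that start at 0, with 1 point per library and a line at the group mean. Il33 and Il1rn are low and Il11 is high in all 6 TGF-β1 libraries, and Csf1 is lowest in the 3 NC libraries.

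Il33 (Entrez 77125) had 279, 299 and 285 estimated counts in NC, 253, 242 and 249 in KD, 9, 22 and 13 in NC+TGF-β1 and 10, 2 and 8 in KD+TGF-β1 libraries. The transcript of this nuclear alarmin was almost absent from the TGF-β1 libraries, which did not overlap with the basal ones. In control cells it fell from 15.8 ± 0.412 to 0.835 ± 0.374 CPM, to 5.34% of the basal level (log2 change -4.23, SE 0.188, edgeR adjusted p = 1.346e-10). Silenced cells showed a log2 change of -5.11 (SE 0.225, edgeR adjusted p = 1.138e-10), 34.5-fold lower. By limma on log2(TPM + 1), a scale that understates changes of low genes, these were -2.89 and -2.99. With only the transcripts listed in both tables they were -5.21 and -10.9, the latter against a group at 0, where a fitted change is no bound. All 3 KD libraries lay below all 3 NC libraries in the basal state, as 22.7% of all genes were parted between these groups. The log2 difference there was -0.24 (SE 0.114) and did not pass (edgeR adjusted p = 0.303). With TGF-β1 the silenced and control libraries overlapped, with a log2 difference of -1.12 (SE 0.407, edgeR adjusted p = 0.0971) on 2 to 22 counts a library. It was -0.30 by limma and -5.93 with only the transcripts listed in both tables, and passed in neither (adjusted p = 0.104 and 0.126). The interaction was -0.88 (SE 0.424, edgeR adjusted p = 0.458).

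The deposited counts place Il33 on different transcripts in the basal and the TGF-β1 table. In basal libraries all counts were on NM_001164724, which begins at the downstream start printed above, apart from 10.7 counts on a predicted transcript in NC replicate 2. In TGF-β1 libraries the counts were on NM_133775, which begins 20.7 kb upstream, apart from NC+TGF-β1 replicate 2, where all 22 were on NM_001164724. Both transcripts code for 266 codons, so the protein predicted from either start is of the same length. NM_133775 has no row in the basal table. That table lists no transcript at 0 in all of its libraries, whereas the TGF-β1 table lists 5433. Of NM_001164724, which both tables list, NC+TGF-β1 libraries held 0, 22 and 0 counts and KD+TGF-β1 libraries 0. How reads are divided among transcripts that share exons rests on the counting model, so the change of start was not tested.

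Il1rn (Entrez 16181), the antagonist of IL-1, had 289, 292 and 315 counts in NC, 295, 343 and 340 in KD, 53, 47 and 63 in NC+TGF-β1 and 71, 62 and 64 in KD+TGF-β1 libraries. The basal libraries all held at least 289 counts and those with TGF-β1 at most 71. It was 5.28-fold lower with TGF-β1 in control cells (log2 change -2.40, SE 0.105, edgeR adjusted p = 1.145e-10) and 4.68-fold lower in silenced cells (-2.23, SE 0.1, edgeR adjusted p = 1.488e-10). Silencing gave 0.10 (SE 0.079, edgeR adjusted p = 0.567) in basal and 0.27 (SE 0.134, edgeR adjusted p = 0.25) in TGF-β1 libraries, with overlap in both. NM_031167, which codes for the shorter intracellular form of 159 codons, held at least 94.5% of the gene's TPM in every library. The secreted form, NM_001039701 with 178 codons, begins 8.5 kb downstream and had counts in KD replicate 1 and NC+TGF-β1 replicate 3 only, up to 5.51% of TPM. The start with the AP-1 letters printed above is thus the one to which the deposited counts assign nearly all Il1rn transcripts.

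Il1a (Entrez 16175) had 14, 9 and 16 counts in NC, 13, 20 and 10 in KD, 6, 4 and 7 in NC+TGF-β1 and 8, 12 and 10 in KD+TGF-β1 libraries. The gene of interleukin-1α was thus close to the limit of detection, and lowest in the control cells given TGF-β1. There it was 2.18-fold lower than in NC libraries (log2 change -1.13, SE 0.39, edgeR adjusted p = 0.0212), a call that was lost without NC replicate 1 (0.0551), without NC replicate 3 (0.0901), without NC+TGF-β1 replicate 2 (0.0814) and by DESeq2 (adjusted p = 0.111). In silenced cells the difference was -0.43 (SE 0.336, edgeR adjusted p = 0.275). The KD+TGF-β1 libraries all lay above the NC+TGF-β1 libraries, as for 32.2% of all genes in one direction or the other, but 0.81 (SE 0.413) did not pass (edgeR adjusted p = 0.251). In basal cells silencing gave 0.11 (SE 0.317, edgeR adjusted p = 0.899).

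Il18 (Entrez 16173) had 5, 8 and 3 counts in NC, 5, 9 and 7 in KD, 6, 3 and 6 in NC+TGF-β1 and 8, 5 and 5 in KD+TGF-β1 libraries. All 4 groups overlapped, and no difference was detectable at this depth.

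Il11 (Entrez 16156) had 12, 11 and 7 counts in NC, 11, 10 and 9 in KD, 90, 104 and 91 in NC+TGF-β1 and 65, 74 and 96 in KD+TGF-β1 libraries. Every TGF-β1 library held at least 65 counts of this gp130 cytokine and every basal library at most 12. In control cells it rose 9.76-fold with TGF-β1, from 0.55 ± 0.152 to 5.41 ± 0.411 CPM (log2 change 3.29, SE 0.217, edgeR adjusted p = 9.765e-09). The rise in silenced cells was 8.21-fold (3.04, SE 0.224, edgeR adjusted p = 3.168e-08). Silencing gave -0.025 (SE 0.347, edgeR adjusted p = 0.984) in basal cells and -0.27 (SE 0.146, edgeR adjusted p = 0.273) with TGF-β1, where KD+TGF-β1 replicate 3 (96 counts) lay within the range of the controls. In the interaction it stood at -0.25 (SE 0.38, edgeR adjusted p = 0.857). Beside it, Col1a1 was the fibroblast marker that moved with TGF-β1, from 8 to 18 counts in basal to 94 to 126 in TGF-β1 libraries. The other 5 listed fibroblast markers had at most 5 counts in any library. Of the endothelial markers, 4 of 5 were listed, and their sum went from 9 to 21 counts in basal to 47 to 69 in TGF-β1 libraries. Cdh5 made up most of it, at 8 to 20 and 45 to 68 counts, while Pecam1 was at 0 to 5, Kdr at 0 to 1 and Tie1 at 0. Their part in the rise of Il11 was not tested.

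The counts of Il11 were divided among transcripts unevenly between replicates. NM_008350, the 199-codon form whose promoter is printed above, is listed in the TGF-β1 table only. It held 16.5, 23.1 and 22.3 counts in NC+TGF-β1 libraries, 41.2 in KD+TGF-β1 replicate 2 and 0 in the other KD+TGF-β1 libraries. NM_001290423, which begins 4.7 kb upstream at a start with no AP-1 match in the window printed, codes for 140 codons. It took all 65 counts of KD+TGF-β1 replicate 1 and none of NC+TGF-β1 replicate 1. Predicted transcripts held much of the rest. XM_030242163 had 40.0 and 28.9 counts in NC+TGF-β1 replicates 1 and 2. XM_036152699 had 42.5 in NC+TGF-β1 replicate 3 and 34.8 in KD+TGF-β1 replicate 3. The gene totals are therefore given without an order among its starts.

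Lif (Entrez 16878), the second most abundant member, had 2718, 2654 and 2949 counts in NC, 2780, 2829 and 2839 in KD, 2773, 2833 and 2856 in NC+TGF-β1 and 2911, 3103 and 2991 in KD+TGF-β1 libraries. In CPM the KD+TGF-β1 libraries, at 164.9, 177.3 and 172, lay above all others, although replicate 1 held fewer counts than NC replicate 3. NC libraries, at 152.2, 144.2 and 160.0 CPM, overlapped with KD and with NC+TGF-β1 libraries. With TGF-β1 it rose in silenced cells from 151.7 ± 1.29 to 171.4 ± 6.23 CPM, 1.13-fold (log2 change 0.18, SE 0.039, edgeR adjusted p = 0.001222). In control cells the difference was 0.080 (SE 0.039) and did not pass (edgeR adjusted p = 0.088). Of 13 alternatives, 10 left this difference uncalled, at an adjusted p of up to 0.36 (edgeR without 1 library). It passed without NC replicate 3 (0.15, edgeR adjusted p = 0.00246), with DESeq2 size factors in edgeR (0.11, adjusted p = 0.0335) and by limma on TPM (0.10, adjusted p = 0.0232). Silencing gave -0.0038 in basal cells (95% interval -0.081 to 0.073, edgeR adjusted p = 0.977). In TGF-β1 libraries it gave 0.092 (SE 0.039, edgeR adjusted p = 0.158) without overlap. NM_008501, which codes for the 203-codon LIF, held 18.9 to 39.5% of the gene's TPM in the 6 basal libraries and 42.9 to 49.9% in the 6 TGF-β1 libraries, which did not overlap. The predicted transcript XM_006514542 went the other way, from 44.4 to 57.3% down to 28.1 to 35.5%. Within the basal libraries NM_008501 was at 25.9, 39.5 and 33.3% in NC and 18.9, 24.8 and 19.7% in KD libraries, without overlap. These shares were not tested. In CPM, 22.7% of all genes were parted between NC and KD libraries. Between basal and TGF-β1 libraries 65.9% were parted in control and 72.9% in silenced cells. How many other transcripts part in their shares was not counted.

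Il6 (Entrez 16193), the acute inflammatory gp130 cytokine, has no row in the basal table and is listed at 0 in all 6 TGF-β1 libraries. A count of 0 allows up to 3 counts a library, 0.167 to 0.17 CPM at these depths, for counting error only. No comparison was possible.

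Csf1 (Entrez 12977) had 4973, 5103 and 5240 counts in NC, 6157, 6220 and 6212 in KD, 6047, 6020 and 5868 in NC+TGF-β1 and 6455, 6449 and 6362 in KD+TGF-β1 libraries. The macrophage growth factor was lowest in NC and highest in KD+TGF-β1 libraries, and each group was parted from the one it was compared with. In basal cells silencing raised it 1.19-fold, from 280.0 ± 3.76 to 333.8 ± 3.23 CPM (log2 change 0.25, SE 0.025, edgeR adjusted p = 4.275e-05). Without NC replicate 1 the log2 change was also 0.25 (edgeR adjusted p = 5.22e-05). With TGF-β1 it rose by silencing 1.076-fold, from 340.8 ± 3.81 to 366.7 ± 1.63 CPM (0.11, SE 0.024, edgeR adjusted p = 0.01302). The latter call was lost without NC+TGF-β1 replicate 3 (0.098, edgeR adjusted p = 0.0524) and held without KD+TGF-β1 replicate 1 (0.11, edgeR adjusted p = 0.0379). Csf1 was higher in TGF-β1 than in basal libraries by 0.28 in control cells (SE 0.025, edgeR adjusted p = 1.76e-07). In silenced cells it was higher by 0.14 (SE 0.024, edgeR adjusted p = 0.0002255). The effect of silencing differed between the settings by -0.15 (SE 0.035), at an unadjusted p of 0.0007953 and an edgeR adjusted p of 0.0727. Of 18 alternatives, 15 left the interaction uncalled, at an adjusted p of up to 0.19 (edgeR without 1 library). The edgeR adjusted p was 0.122 without NC replicate 1 and 0.161 without KD+TGF-β1 replicate 1. The interaction was called without NC replicate 3 (-0.18, edgeR adjusted p = 0.0424), by limma on TPM (-0.15, adjusted p = 0.0444) and by DESeq2 (-0.16, adjusted p = 0.0489). NM_007778, of 552 codons, held 69.5 to 77.5% of the TPM of Csf1 in the 12 libraries. The short form NM_001113529, of 257 codons, whose human counterpart stays bound to the membrane, held 10.2, 12.1 and 11.7% in NC and 16.6, 14.1 and 12.9% in KD libraries. With TGF-β1 it held 12.9, 15.01 and 10.3% in control and 16.9, 17.2 and 12.9% in silenced cells, where the groups overlapped at the lowest KD+TGF-β1 library.

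Il34 (Entrez 76527), the other ligand of the CSF-1 receptor, had 579, 610 and 646 counts in NC, 646, 648 and 673 in KD, 484, 512 and 462 in NC+TGF-β1 and 516, 556 and 486 in KD+TGF-β1 libraries. The TGF-β1 libraries were all below the basal ones of the same cells, opposite to Csf1. Il34 was lower with TGF-β1 in control cells, from 33.5 ± 1.35 to 27.7 ± 1.22 CPM (log2 change -0.28, SE 0.055, edgeR adjusted p = 0.00054). In silenced cells it went from 35.3 ± 0.413 to 29.6 ± 1.95 CPM (-0.25, SE 0.054, edgeR adjusted p = 0.0009508). In the basal state the KD libraries lay barely above the NC libraries in CPM (lowest KD 35.07, highest NC 35.04). Of all genes, 22.7% were parted between these groups. The log2 difference was 0.075 and did not pass (SE 0.053, edgeR adjusted p = 0.517). With TGF-β1 the difference was 0.098 (SE 0.056, edgeR adjusted p = 0.312) with overlap. NM_001135100, of 235 codons, held 66.6 to 79.2% of its TPM.

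Tslp (Entrez 53603) had 17, 21 and 14 counts in NC, 16, 19 and 10 in KD, 15, 12 and 14 in NC+TGF-β1 and 15, 14 and 16 in KD+TGF-β1 libraries. The groups overlapped in each of the 4 pairwise comparisons. Their log2 differences were between -0.28 and 0.14, with SEs of 0.262 to 0.275 and edgeR adjusted p of 0.403 to 0.837.

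**Figure D3:**
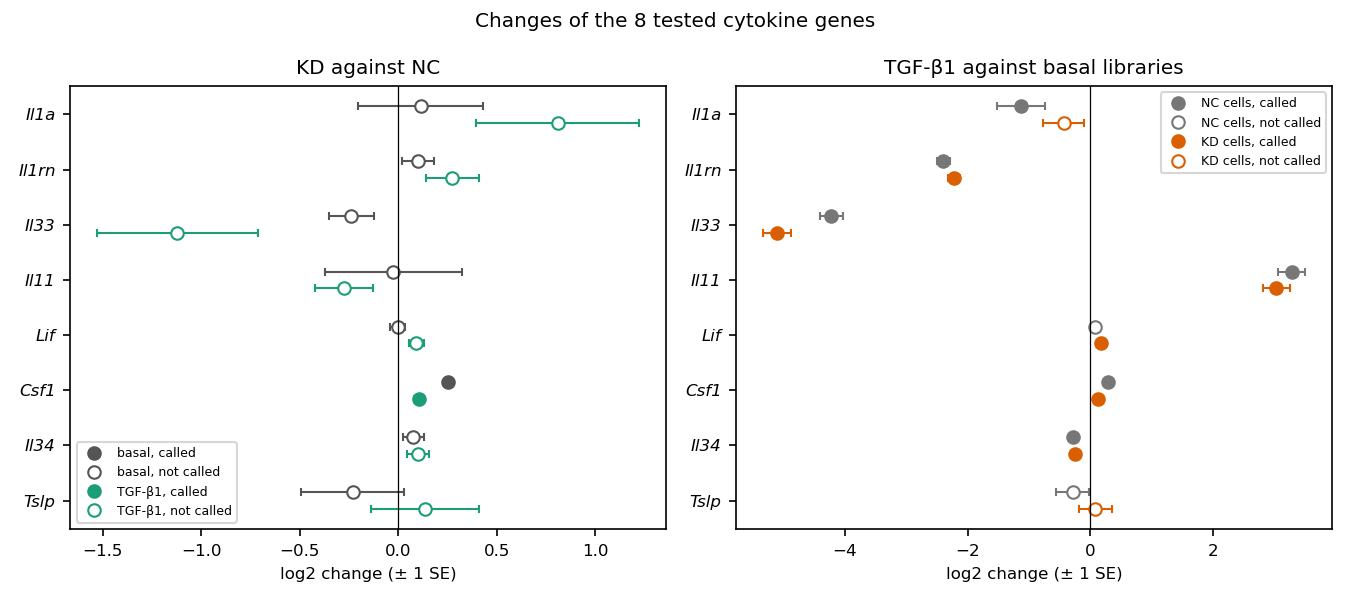
Log2 changes of the 8 tested members with bars of 1 SE, for KD against NC (left) in basal and TGF-β1 libraries and for TGF-β1 against basal libraries (right) in NC and KD cells. Filled points passed an edgeR adjusted p under 0.05, which on the left are the 2 points of Csf1, and the axes differ in scale.

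**Figure D4:**
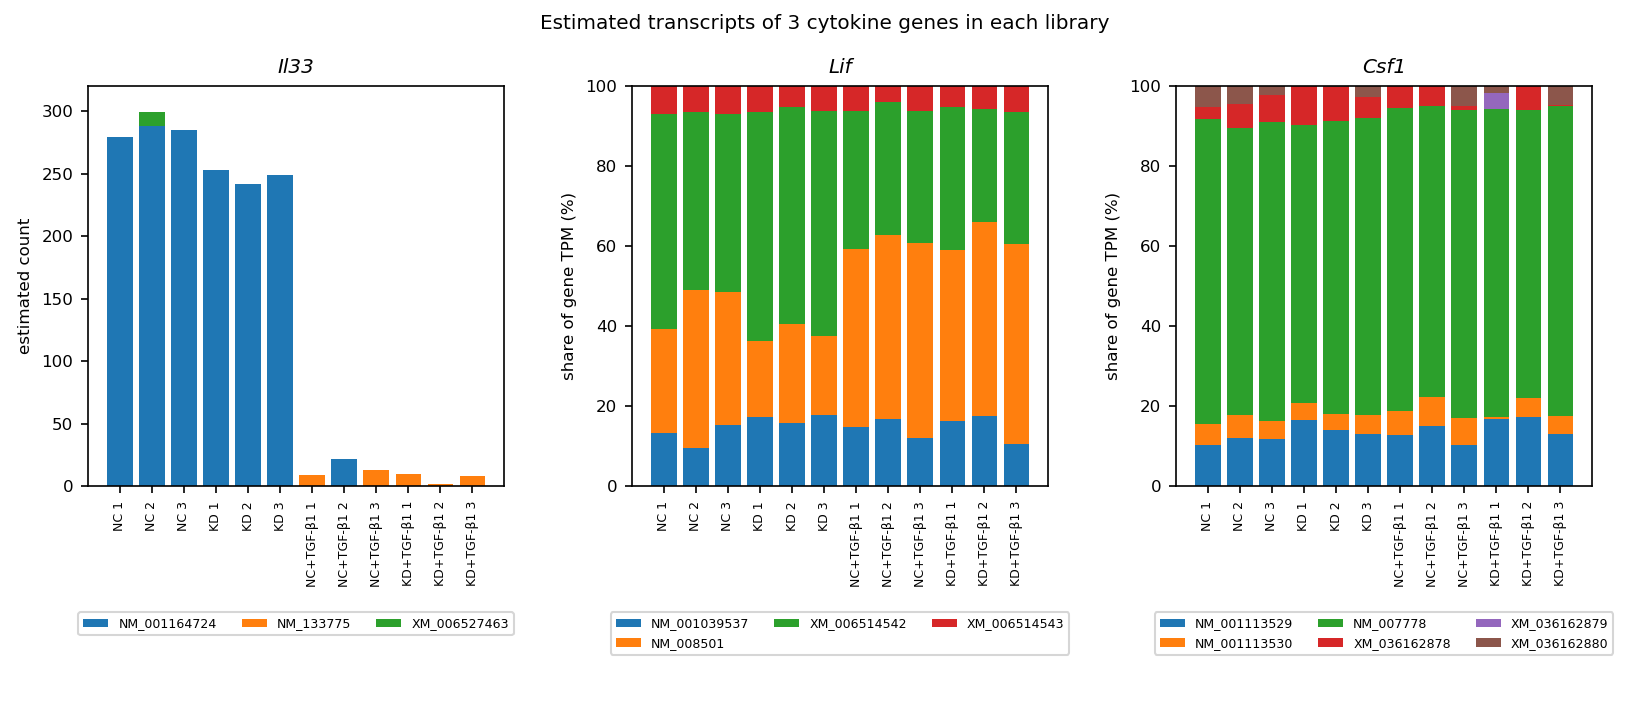
Deposited transcripts in each library as estimated counts for Il33 (left) and as percent of the gene's TPM for Lif (middle) and Csf1 (right). Il33 counts change from NM_001164724 to NM_133775 between the tables, apart from NC+TGF-β1 replicate 2, and NM_008501 of Lif holds a greater share in the 6 TGF-β1 libraries.

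Transcripts of receptors for several members were counted in the same libraries, and protein was not measured. Of 18 listed receptor genes 14 were in both tables and 11 were tested. Csf1r, the receptor of CSF-1 and IL-34, had 1406 to 1710 counts a library (32.0 to 41.6 TPM), all on NM_001037859 of 977 codons. Of 10 markers of macrophages and other leukocytes 9 were listed, and their sum ran from 1479 to 1764 counts, mostly Csf1r itself. Ptprc, the common leukocyte antigen, was at 0 to 9 counts, the macrophage marker Adgre1 at 0 to 1, Itgam at 0 to 3, Lyz2 at 0 to 5, Fcer1g at 0 to 2 and the T cell gene Cd3e at 0 to 1. Cd74 was at 9 to 25 counts, and Cd68 at 58 to 66 in basal and 14 to 27 in TGF-β1 libraries. Csf1r was lower with silencing in TGF-β1 libraries, from 96.4 ± 2.09 to 84.5 ± 1.9 CPM (log2 change -0.19, SE 0.039, edgeR adjusted p = 0.00675), opposite to its ligand Csf1. Csf1r was higher in TGF-β1 than in basal libraries by 0.21 in control cells (SE 0.039, edgeR adjusted p = 0.000367). In silenced cells it was higher by 0.13 (SE 0.039, edgeR adjusted p = 0.0102).

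Among the IL-1 family receptors, the signalling receptor of IL-1, Il1r1, had 0 to 7 counts and the decoy Il1r2 0 to 1. The IL-33 receptor gene Il1rl1 had 940 to 1119 counts (20.7 to 28.1 TPM) and was not called in any comparison. These 3 genes are named after their values were seen. The membrane form of Il1rl1, NM_001025602 of 567 codons, took 6.07 to 27.0% of its TPM. The soluble form of 337 codons has 2 transcripts, NM_001294171 with 19.8 to 59.05% and NM_010743 with 0 to 49.5%. Together they took 56.0 to 59.05% in the 6 basal libraries and 64.8 to 71.6% in the 6 TGF-β1 libraries, without overlap. The rest lay on predicted transcripts with no matched coding length. These were XM_036162498 with 3.72 to 21.35%, XM_006495744 with 0 to 22.95% and XM_006495741 with 0 to 9.82%. The full share of either form is therefore not known. These shares were not tested, and how many other transcripts part in this way was not counted. Il1rap, the accessory chain shared by the IL-1 and IL-33 receptors, was lower with TGF-β1 in control cells (-0.61, SE 0.096, edgeR adjusted p = 6.6e-05). In silenced cells it was at -0.27 (SE 0.092, edgeR adjusted p = 0.0174). It was higher with silencing in TGF-β1 libraries (0.33, SE 0.099, edgeR adjusted p = 0.0454). Il18rap, a chain of the IL-18 receptor, rose with silencing there by 0.13 (SE 0.03, edgeR adjusted p = 0.013), whereas its partner Il18r1 had 3 to 15 counts. Il6st, which codes for gp130, rose with TGF-β1 by 0.27 in control and 0.13 in silenced cells (edgeR adjusted p = 4.55e-05 and 0.00973). In silenced cells Il6ra, the IL-6 receptor, rose by 0.56 and Sdc1, a syndecan to which IL-34 binds, by 0.16 (edgeR adjusted p = 0.00261 and 0.00306). Sigirr, an inhibitory member of the IL-1 receptor family, was lower with TGF-β1 by -0.37 in control and -0.33 in silenced cells (edgeR adjusted p = 5.8e-06 and 2.02e-05). Over the receptor list, 0 genes were called by silencing in basal cells, with 2 higher and 1 lower in TGF-β1 libraries. TGF-β1 called 2 higher and 4 lower in control cells and 4 higher and 4 lower in silenced cells. The list's median log2 changes with TGF-β1 were -0.12 and 0.0012.

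The counts of this and the following 6 lists are read against the shares of all genes called, which were 3.66% for silencing in basal and 11.4% in TGF-β1 libraries, and 64.2% and 65.1% for TGF-β1 in control and silenced cells. Over the 7 lists, silencing called 0 to 18.2% of the tested genes in basal and 10.5 to 45.5% in TGF-β1 libraries. TGF-β1 called 54.5 to 81.8% in control and 70.8 to 100% in silenced cells, so that counts such as 6 of 11, 10 of 16 and 17 of 24 were near the share of all genes. No list was tested against other genes.

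Of 11 tested genes that process or restrain the IL-1 family, silencing in basal cells lowered 2, the calpains Capn2 (log2 change -0.19) and Capn1 (-0.15), proteases that can cut the IL-1α precursor (edgeR adjusted p = 0.00917 and 0.0413). In TGF-β1 libraries 3 fell and 2 rose with silencing. Capn2 (-0.19), Capn1 (-0.20) and their small subunit Capns1 (-0.28) were the 3 that fell, and Pmepa1 rose by 0.18 (edgeR adjusted p = 0.000615 to 0.00593). Pmepa1, although listed here, is known as a TGF-β target that limits SMAD signalling. With TGF-β1 in control cells 2 rose, Pmepa1 by 1.59 and Capn2 by 0.54, and 6 fell, among them Sigirr and Hax1 (-0.35), a binding partner of IL-1α. In silenced cells 2 rose and 6 fell, with Pmepa1 at 1.70, Capn2 at 0.53, Capn1 at -0.23 and Hax1 at -0.17. Capn1 was at -0.18 in control cells. The medians with TGF-β1 were -0.18 and -0.17, against -0.032 and -0.014 over all genes.

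Of 24 tested genes of signalling from IL-1 family receptors, silencing called 0 in basal cells by edgeR and raised 5 in TGF-β1 libraries. Irak2 (0.20), a kinase of the receptor complex, Tollip (0.18), which binds it, Traf6 (0.17), a ubiquitin ligase, and Ikbkb (0.14), the IκB kinase, were among them (edgeR adjusted p = 0.00353 to 0.0212). TGF-β1 raised 12 and lowered 5 in control cells and raised 13 and lowered 4 in silenced cells. Irak2 rose by 1.41 and 1.46, and the kinase Mapkapk2 by 0.28 and 0.30. In control and silenced cells the kinase Mapk8 rose by 0.34 and 0.46 and the ubiquitin ligase Peli1 by 0.29 and 0.39. Traf6 rose by 0.15 and 0.31 and the kinase Map3k7 by 0.14 and 0.22. In both kinds of cells 17 of 24 genes (70.8%) were called, near the share of all genes, and the medians were 0.12 and 0.16.

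Of 19 genes of gp130, JAK and STAT3 signalling, 1 fell with silencing in basal cells and 2 in TGF-β1 libraries. Pias3, an inhibitor of STAT3, was at -0.26 and -0.30 (edgeR adjusted p = 0.0109 and 0.00213), and Stat3 was at -0.12 with TGF-β1 (edgeR adjusted p = 0.0389). TGF-β1 raised 8 and lowered 4 in control cells, and raised 8 and lowered 6 in silenced cells. The kinase Jak1 rose by 0.44 and 0.38, while the feedback inhibitor Socs2 was at -0.62 and -0.45 and the sheddase Adam17 at -0.46 and -0.40 in control and silenced cells. The share called was 63.2% and 73.7%, and the medians were 0.085 and 0.046.

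Of 21 STAT3 target genes, silencing raised 2 in basal cells, Gadd45b (0.39), a stress sensor, and Junb (0.15), an AP-1 subunit (edgeR adjusted p = 3.818e-06 and 0.0133). In TGF-β1 libraries Gadd45b (0.20) and cyclin D1, Ccnd1 (0.15), rose and Lcn2, the tubular injury marker lipocalin-2, was at -0.70 (edgeR adjusted p = 1.496e-08 to 0.00151). The interaction called Lcn2 (-0.65, edgeR adjusted p = 8.176e-06) and Gadd45b (-0.20, edgeR adjusted p = 0.0274). TGF-β1 raised 8 and lowered 9 in control cells, and raised 8 and lowered 13 in silenced cells. Junb rose by 1.52 and 1.33, Ccnd1 was at -0.57 and -0.45, and Lcn2 was at 0.13 in control and -0.51 in silenced cells. Irf1 (1.12) and the kinase Pim3 (-0.81) in control cells and the transcription factor Cebpd (-1.90) in silenced cells were also called. Their median changes were -0.24 and -0.23, and 81.0% and 100% of the list were called.

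Of 22 tested genes of other interleukins, colony-stimulating factors and related cytokines, 1 rose and 1 fell with silencing in basal cells. Csf3, the granulocyte growth factor, rose by 0.28 and Ctf1, the gp130 ligand cardiotrophin-1, was at -0.26 (edgeR adjusted p = 0.0335 and 0.0413). In TGF-β1 libraries Csf3 rose by 0.23, and Ctf1 (-0.23), Clcf1 (-0.20), another gp130 cytokine, and Spp1 (-0.28), osteopontin, were lower (edgeR adjusted p = 0.001 to 0.0352). Spp1 was also called in the interaction (-0.27, edgeR adjusted p = 0.0499). TGF-β1 raised 6 and lowered 12 in control cells and raised 6 and lowered 11 in silenced cells. Spp1 was at -1.70 and -1.97, Il7 at -1.82 and -1.71 and the macrophage factor Mif at -0.76 and -0.87 in control and silenced cells. Metrnl rose by 0.68 and 0.54 and Csf3 by 0.78 and 0.73. The medians were -0.29 and -0.23, with 81.8% and 77.3% called.

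Of 16 genes that control the decay of cytokine mRNAs, silencing called 0 in basal cells by edgeR and raised 2 in TGF-β1 libraries, Arid5a (0.26), which protects Il6 mRNA, and Zfp36l1 (0.19), a decay factor of AU-rich mRNAs (edgeR adjusted p = 0.004 and 0.0375). TGF-β1 raised 9 and lowered 1 in control cells, and raised 11 and lowered 2 in silenced cells. Arid5a rose by 1.48 and 1.72, Zfp36l2 by 0.41 and 0.28 and the importin Tnpo1 by 0.30 and 0.38. The stabilising factor Elavl1 rose by 0.30 and 0.33. Cnot1, the deadenylase scaffold, rose by 0.33 in control cells and averaged 217.7 and 264.2 CPM in KD and KD+TGF-β1 libraries. The medians were 0.28 and 0.28, with 62.5% and 81.2% called. Of all genes in these lists, 5 stand in 2 of them.

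For the 4 members whose log2 change reached 1 in a comparison, the tested genes with the most similar pattern were found. The measure was the root mean square difference of log2 CPM group means over the 4 groups, after centring each gene on its own mean. Among the genes closest to Il11 were Col1a1 (0.0906) and Cyp21a1 (0.1), of which Col1a1 had log2 changes of 3.16 and 3.06 with TGF-β1 in control and silenced cells. Cyp21a1 had fitted changes of 5.13 and 5.15, greater than those of Il11, so the likeness holds on the log2 CPM scale, where a prior count draws low values together. Closest to Il1rn were Neurl3 (0.0477), Elapor2 (0.0519) and Tmem252 (0.0675), with Neurl3 at -2.50 and -2.30. Nearest to Il1a were Gm14296 (0.0687), Slc8b1 (0.0721) and Nipal1 (0.0748). Il33 had no gene as close: Drd3 (0.348), Ifit3b (0.358) and Pdzrn3 (0.377) were its nearest, and of these Drd3 had -3.80 and -5.04.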

How the data were processed

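Basal and TGF-β1 libraries each have a deposited table whose rows are RefSeq transcripts carrying Entrez IDs. Values deposited as read counts are estimated counts (also called expected counts) that need not be whole, per the file headers and values, and the authors also deposited TPM. Per the labels' protocols, RNA was taken with TRIzol and libraries were made with a BGI mRNA kit. Per the submitters' processing notes, RSEM 1.3.1, HISAT2, Bowtie2 and DESeq2 1.34.0 were used, in roles not stated, and the human build hg38 is named although the cells are from mouse. The 24 FPKM and normalized count columns were not used.

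Counts were summed per Entrez ID and rounded, and symbols came from RefSeq for 15690 of the 15802 genes in both tables. The fit used R 4.3.3 with edgeR 4.0.16, filterByExpr, TMM scaling with factors from 0.978 to 1.025, 1 coefficient per group over 12 libraries, 8 residual degrees of freedom and Benjamini-Hochberg adjustment over 11707 genes. The biological coefficient of variation was 4.60%. SEs of log2 changes were worked back from each log2 change and its quasi-likelihood F statistic. The fit was checked on simulated counts. The interval given for Lif is a multiple of this SE taken from the normal distribution. It makes no allowance for the 8 residual degrees of freedom and is narrower than an interval that does. Intervals and floors cover counting error or the fit only. TPM were summed per gene. Transcript starts and coding lengths came from GENCODE M21 and RefSeq on GRCm38.p6, matched by RefSeq ID for 17 of 39 member transcripts.

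The 10 members, the 7 related lists and the tests were chosen with earlier results of these data known. The text names all members, Fh1, up to 4 called genes with the smallest p in each list and comparison, and the 3 genes most like each member with an absolute log2 change of at least 1. Some genes that this rule takes are not reported here. Replicates differed by more than sampling noise (chi-square per gene 1.68 to 13.7). Pairs with NC replicate 1 were at 7.30 and 13.7, and all other pairs at 1.68 to 3.59. Alternatives were DESeq2 size factors, no filter, DESeq2 1.42.0, a replicate block, only the groups compared, limma 3.58.1 on log2(TPM + 1) with a pseudocount of 1, transcripts listed in both tables only, leaving out each library, CPM in place of TPM for levels and count shares in place of TPM shares.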

Additional observations from a re-analysis of the deposited data

How the results depend on the processing

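Over 544 fits of a member in a comparison under an alternative, 518 left the direction and the call as they were. Fits without 1 library gave 0 to 1 called members in TGF-β1 silencing and in the interaction (0 without NC+TGF-β1 replicate 3, and 1 without NC replicate 3). Of 490 counts of called list genes under alternatives, 403 were within 1.5 times the reported count and 87 were not. Limma on TPM and DESeq2 each called 1 in the interaction. Without the filter 1 member was left out, and 9 ranks of members within groups differed when CPM replaced TPM, since length is then not divided out. Directions reversed only for differences that no fit called. For Lif in basal silencing they were 0.0083 with DESeq2 size factors, 0.0034 with only the groups compared, 0.0081 by limma, 0.0078 by DESeq2 and -0.041 to 0.059 without 1 library. For Il34 in the interaction they were -0.0044 by limma and -0.034 to 0.064 without 1 library. Without 1 library, Il1a (-0.20 to 0.32) and Il11 (-0.21 to 0.14) in basal silencing and Tslp with TGF-β1 in silenced cells (-0.15 to 0.29) also changed sign. The cause was not tested.

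Over all genes, basal silencing called 429 (39.4% higher), against 151 (51.0%) with only the groups compared, 53.8% higher by limma, and 212 to 641 without 1 library (41.5 to 50.4%). Silencing with TGF-β1 called 1340, against 889 by DESeq2, 1905 with only the groups compared and 787 to 974 without 1 library, and the interaction 104, against 38 to 147 without 1 library. Whether same-numbered libraries were paired is not stated in the labels, and correlations of their deviations cannot settle it. These ran from -0.097 to 0.073 for same-numbered libraries and from -0.083 to 0.114 for others. With the number as a replicate block the interaction called 54 genes while calls of members were unchanged. As a share of counts in place of TPM, NM_007778 held a median of 78.2% of Csf1 and NM_001135100 63.5% of Il34. Depth limited Il1a, Il18, Tslp and basal Il11, at 3 to 21 counts a library, and Il33 in TGF-β1 libraries, at 2 to 22.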
